A study of Mus musculus with 2 samples.

Results

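The Col27a1 locus is described here by 134 called binding sites, 106 for SOX6 and 28 for SOX9, out of 102972 in the series (79107 Sox6 and 23865 Sox9 peaks). The rule took every peak of either list whose centre lay on chromosome 4 between 62800000 and 63010000 in mm9. Col27a1 lies on the plus strand at about 62875000 to 62996000, so the window was divided into 75 kb upstream, a gene body of 121 kb and 14 kb downstream. These limits are approximate. The RefSeq gene table used here is on another build (GRCm38.p6), where Col27a1 is 120983 bp long and Kif12 and Ambp are the nearest protein-coding genes on its upstream side and Orm1 and Orm3 on its downstream side. The Sox6 peaks come from 1 chromatin immunoprecipitation (ChIP-seq) sample of wild-type, untreated primary rib chondrocytes of ICR mice at postnatal day 1, made with an antibody to Sox6, next to 1 sample of input DNA from the same kind of cells. The rib cartilage was cut to keep proliferative and prehypertrophic zones and to leave mature hypertrophic cartilage out. The Sox9 peaks are the submitters' re-analysis of 2 earlier samples of rib chondrocytes, for which the sources used here name neither strain nor age. Each factor has 1 list and no replicate, and the lists hold positions only, so depth is unknown, no value carries a replicate error, and a difference between the lists cannot be told apart from a difference between the antibodies, animals or libraries.

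Col27a1 encodes the alpha chain of type XXVII collagen, a fibrillar collagen made chiefly by cartilage and laid down around growth plate chondrocytes. SOX9 is the transcription factor that directs cartilage formation and collagen genes of chondrocytes. SOX6 belongs to the SOXD group, which lacks a transactivation domain of its own and acts together with SOX9 at cartilage genes. Both bind the minor groove of DNA through an HMG box. Kif12 encodes a kinesin motor, Ambp the precursor of alpha-1-microglobulin and bikunin, and Orm1 and Orm3 acute-phase orosomucoids. Where these neighbours lie in mm9 was not determined. Whether the upstream or downstream part of the window holds any of them is therefore not known.

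The gene body of Col27a1 also holds the microRNA gene Mir455, the only other gene that the RefSeq table places wholly inside it. Its 2 mature products are shown because they share this host locus with the sites described. They lie on the plus strand of chromosome 4, and the sequences are those of RefSeq for GRCm38.p6, with the seed (bases 2 to 8) in capitals. The seeds differ from each other.
mmu-miR-455-5p: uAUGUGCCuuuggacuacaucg
mmu-miR-455-3p: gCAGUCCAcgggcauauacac
How far any peak lies from Mir455 was not computed, because the peaks are in mm9.

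Over the full lists, SOX6 sites were denser in the Col27a1 gene body than upstream of it, and the densities of SOX9 sites in these parts were nearer to each other, a contrast that did not hold in the first 50% of each list. Of the 106 Sox6 peaks, 89 lay in the gene body, 13 upstream and 4 downstream. That is 7.36 Sox6 peaks per 10 kb in the gene body (95% exact Poisson interval 5.91 to 9.05) and 1.73 per 10 kb upstream (0.923 to 2.96), a density ratio of 4.24 (2.36 to 8.28). Of the 28 Sox9 peaks, 19 lay in the gene body and 9 upstream, or 1.57 per 10 kb (0.945 to 2.45) against 1.20 (0.549 to 2.28), a ratio of 1.31 (0.564 to 3.28). In the first 50% of each list the density ratio was 1.86 for Sox6 (27 gene-body and 9 upstream peaks) and 2.07 for Sox9 (10 and 3). No Sox9 peak was listed downstream. Over the whole of chromosome 4 the densities were 0.326 Sox6 and 0.0998 Sox9 peaks per 10 kb, so both parts of the locus were above the chromosome in both lists. All intervals cover counting error only and take peaks as independent, which neighbouring peaks are not.

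**Figure D1:**
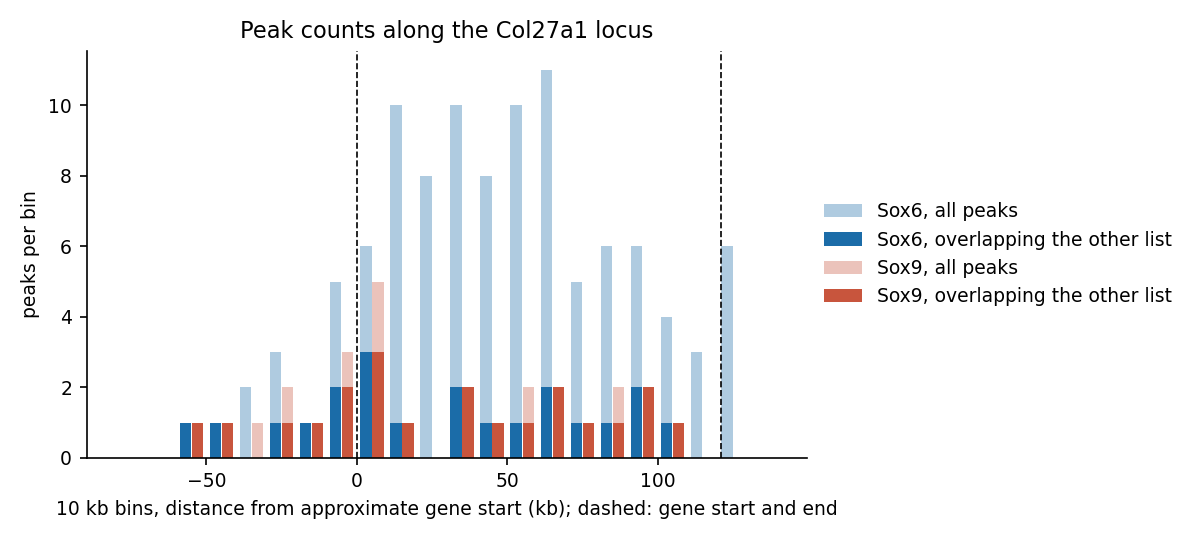
Peaks per 10 kb bin (y axis) against distance from the approximate start of Col27a1 in kb (x axis), for Sox6 (blue) and Sox9 (red), with the peaks that overlap the other list in solid colour and the gene limits as dashed lines; the bins at the window's edges are shorter. Sox6 counts reach 11 in the bin from 60 to 70 kb, while Sox9 counts reach 5 in the first bin of the gene.

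There were 4.68 Sox6 peaks per Sox9 peak in the gene body and 1.44 upstream, against 3.31 over the whole lists. The odds of a peak being Sox6 rather than Sox9 were 3.24 times as high in the gene body as upstream (95% interval 1.05 to 9.55; two-sided Fisher's exact test, Benjamini-Hochberg adjusted over 3 comparisons of upstream with gene body, p = 0.0372). This difference did not hold without the later part of the lists. With the first 50% of each list the ratio of odds was 0.90, from 27 Sox6 and 10 Sox9 peaks in the gene body and 9 and 3 upstream (Fisher's exact test, adjusted p = 1). With the Sox6 list shortened to the length of the Sox9 list, a setting added after the data were seen, it was 2.13 (Fisher's exact test, adjusted p = 0.509). These tests treat peaks as independent, which neighbouring peaks are not, and each shared site enters them through both lists. The locus was also described with its high Sox6 count already known. The order of the lists is not documented and is used here as a description only.

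The Sox6 list placed 2 sites of this locus among its first 25 entries. One lay inside the gene, 3.65 kb from the approximate start, at 62878571 to 62878720, place 14 of the list. The other lay 27.5 kb upstream at 62847451 to 62847571, place 25. Another early site, at 62882651 to 62882761 and 7.71 kb into the gene, held place 91. All 3 overlapped a Sox9 peak, as did 84.1% of all peaks in the first 1% of the Sox6 list. Of the 10 Sox6 peaks that came earliest in the list, 8 lay in the gene body and 2 upstream, and 9 overlapped a Sox9 peak. Over the whole list, 70.8% of the peaks in the first 10% did so. The exception was the upstream peak at 62851395 to 62851504 (place 1735), which lay 81 bp from the edge of a Sox9 peak that is itself early (place 1097 of 23865). The remaining 6 of the 10 were all in the gene body: 62890134 to 62890247 (place 1293), 62880734 to 62880868 (place 4712), 62914814 to 62915008 (place 5676), 62910148 to 62910293 (place 7127), 62984578 to 62984702 (place 8804) and 62971560 to 62971760 (place 9639).

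**Figure D2:**
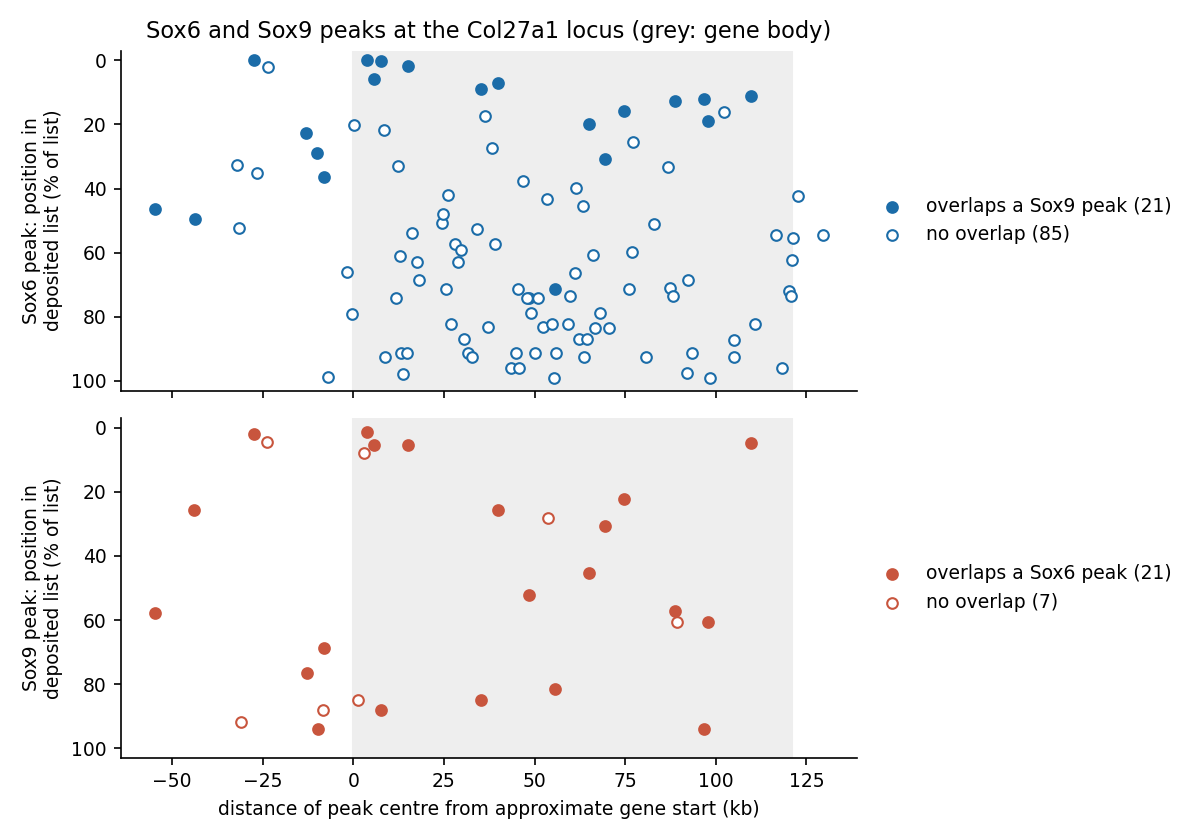
Position of each peak in its deposited list, in percent of the list with the first entry at the top (y axis), against distance of its centre from the approximate start of Col27a1 in kb (x axis), for Sox6 (upper panel, 106 peaks) and Sox9 (lower panel, 28 peaks); solid points overlap a peak of the other list and the grey band is the gene body. Solid Sox6 points lie near the top of the upper panel, and most open points lie below its middle within the gene.

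Most Sox6 peaks of the gene body stood late in the list. In the gene body 62 of 89 (69.7%) were in the last 50% of the list, upstream 4 of 13 (30.8%) and downstream 3 of 4. The median position was 71.4% of the list in the gene body and 36.4% upstream. In the Sox9 list the parts were ordered the other way, with medians of 45.3% in the gene body and 68.9% upstream. These positions were not tested.

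With the full lists and an overlap of 1 bp or more, sharing between the factors at Col27a1 was close to that of the whole lists. At the locus 21 of 106 Sox6 peaks met a Sox9 peak (an overlap of 1 bp or more), 19.8% (95% exact binomial interval 12.7 to 28.7), against 23.1% of all Sox6 peaks. In turn 21 of 28 Sox9 peaks met a Sox6 peak, 75% (55.1 to 89.3), against 76.7% of all Sox9 peaks. If each peak of the locus were shared at the rate of all peaks in the same twentieth of its list, 19.7 Sox6 and 21.5 Sox9 peaks would be shared. The share of Sox6 peaks depends on the part of the list that is used: with the Sox6 list shortened to the length of the Sox9 list it was 68.2% (15 of 22). The share of all peaks in the shortened list is not given here, and in the first 25% of the Sox6 list it was 54.0%.

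The shared Sox6 sites of Col27a1 mostly stood at the front of the list. In the first 25% of the Sox6 list 14 of 19 members were shared, 73.7% (48.8 to 90.9), against 54.0% of all peaks there. From 25% to 50% of the list 5 of 18 were shared (27.8%, 9.69 to 53.5, against 22.2%), and from 50% to 75% 2 of 34 (5.88%, 0.720 to 19.7, against 10.2%). None of the 35 members in the last 25% was shared, which allows a share of up to 10.0% (upper limit of the exact interval), against 5.87% of all peaks there. The value of the whole list lay inside the locus's interval in each of these 4 parts of either list. In the Sox9 list 6 of 8, 4 of 5, 5 of 6 and 6 of 9 members were shared in the same parts, from first to last.

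**Figure D3:**
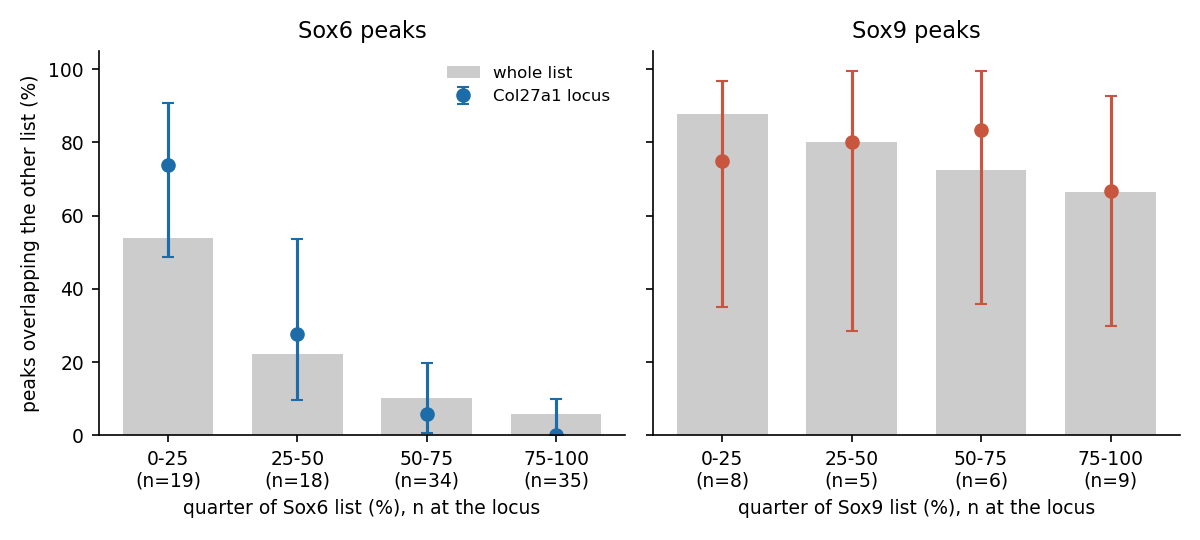
Percent of peaks that overlap the other list (y axis) by successive 25% of the deposited list (x axis, with the number of peaks at the locus), for Sox6 (left) and Sox9 (right); points are the Col27a1 locus with 95% exact binomial intervals and grey bars the whole list. The Sox6 points fall from 73.7% to 0 along the list and the Sox9 points stay between 66.7% and 83.3%.

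Shared sites made up a larger part of the Sox6 peaks upstream than in the gene body. This difference did not hold when both lists were cut to their first 50% or more overlap was required. Upstream 6 of 13 Sox6 peaks were shared (46.2%, 19.2 to 74.9) and in the gene body 15 of 89 (16.9%, 9.75 to 26.3), a difference of 29.3 percentage points (two-sided Fisher's exact test, adjusted over 3 comparisons, p = 0.0372). With the first 50% of each list the difference turned to -7.41 percentage points, from 2 of 9 upstream and 8 of 27 in the gene body (Fisher's exact test, adjusted p = 1). With 50% of both peaks required to overlap it was -4.67 percentage points, from 1 of 13 and 11 of 89 (Fisher's exact test, adjusted p = 1). With the Sox6 list shortened to the length of the Sox9 list it was 8.33 percentage points, from 3 of 4 and 12 of 18 (Fisher's exact test, adjusted p = 1). When only the Sox6 peaks were limited to the first 50% of their list and all Sox9 peaks were kept, the upstream share stayed higher. It was 6 of 9 upstream (66.7%) and 13 of 27 in the gene body (48.1%), which was not tested. At the rate of all peaks at the same list positions, 3.55 of the 13 upstream and 15.6 of the 89 gene-body peaks would be shared. For Sox9 the shares were 6 of 9 upstream (66.7%, 29.9 to 92.5) and 15 of 19 in the gene body (78.9%, 54.4 to 93.9), which the same test did not separate (adjusted p = 0.646, Fisher's exact test). With 50% of both peaks required to overlap, the Sox9 shares were 1 of 9 and 11 of 19 (Fisher's exact test, adjusted p = 0.0584). These tests compare positions within 1 pair of lists, and they treat neighbouring peaks as independent.

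The upstream part began with a pair of shared sites far from the gene. The first Sox6 peak of the window, at 62820119 to 62820227 and 54.8 kb upstream of the approximate gene start, overlapped the Sox9 peak at 62820153 to 62820308. The next shared site was 43.7 kb upstream, with Sox6 at 62831143 to 62831428 and Sox9 at 62831054 to 62831236. On the side away from the gene the nearest peaks outside the window were distant, a Sox9 peak 55.8 kb before its edge (62744102 to 62744212) and a Sox6 peak 128.6 kb before it (62671295 to 62671429).

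Between 33 and 23 kb upstream the peaks of both factors mostly lay side by side. A Sox9 peak at 62844021 to 62844227 had no Sox6 peak on it, the nearest edge being 501 bp away. The shared site of place 25 followed, where the Sox9 peak at 62847534 to 62847707 (place 460) overlapped the Sox6 peak by 38 bp, the smallest overlap of the 21 shared sites at this locus. Then came the early pair of places 1735 and 1097, in which the Sox9 peak ran from 62851144 to 62851313 without touching the Sox6 peak. The 2 upstream sites that stood early in both lists were therefore 1 narrow overlap and 1 near miss.

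From 13 kb upstream to the gene, 4 Sox9 peaks and 6 Sox6 peaks were listed. The Sox9 peak at 62862118 to 62862448 overlapped a Sox6 peak of 443 bp, the widest Sox6 peak of the upstream part. The Sox9 peak at 62864968 to 62865290 held a Sox6 peak 24.5 bp from its centre. The one at 62866910 to 62867024 overlapped a Sox6 peak by 74 bp, with centres 29.0 bp apart. The fourth, at 62866555 to 62866701, lay 191 bp from the nearest Sox6 edge. All 4 stood in the last 50% of the Sox9 list. On either side of the approximate start itself were a Sox6 peak at 62874682 to 62874770, counted as upstream, and one at 62875004 to 62875226, counted in the gene body, and neither overlapped Sox9. Whether either covers the promoter cannot be said with gene limits known only approximately.

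The 10 kb bin with most Sox9 peaks in the window was the first of the gene, with 5 Sox9 peaks and 6 Sox6 peaks. The bin before it, upstream of the approximate start, held 3 Sox9 peaks, and the bin after it held 1. The Sox9 peak at 62876340 to 62876519 lay 1113 bp from any Sox6 edge, the greatest such gap of the 28. The next, at 62877784 to 62877994 (place 1861), lay 576 bp from the Sox6 peak of place 14 and also overlapped none. The earliest Sox9 peak of the locus (place 295), at 62878579 to 62878735, shared its site with the Sox6 peak of place 14, and their centres were 11.5 bp apart.

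A further 3 shared sites stood in the 5' part of the gene. The Sox9 peak at 62880762 to 62880928 (place 1313) had its centre 44.0 bp from that of Sox6 place 4712. At 62882680 to 62882843 a Sox9 peak from the end of its list (place 20988, 87.9% of the list) overlapped Sox6 place 91 (0.115%). At 62890086 to 62890296 the Sox9 peak of place 1294 and the Sox6 peak of place 1293 had centres 0.5 bp apart.

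After this 5' group no Sox9 centre was listed for 20.0 kb, from 15.2 to 35.2 kb into the gene, the longest stretch between neighbouring Sox9 peaks of the locus. The same stretch held 15 Sox6 peaks, none shared and 2 of them in the first 50% of the list, at positions from 42.1% to 92.4% of the list. The longest stretch without a Sox6 centre inside the gene was 6.42 kb, between the peaks ending at 62893056 and starting at 62899365, and it lies within this Sox9-free stretch. Runs of Sox6 peaks with centres no more than 1000 bp apart held up to 5 peaks, reached by 3 runs: 62886650 to 62888787, 62899365 to 62901859 and 62911216 to 62915008. The first and second held no shared peak and the third held 1, the Sox6 peak of place 5676.

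From 35 kb to the end of the gene, shared sites recurred at intervals of several kb among many more Sox6 peaks. The Sox9 peak at 62910154 to 62910288 had its centre 0.5 bp from that of Sox6 place 7127. The Sox9 peak at 62914625 to 62915041, the widest of the 28 at 417 bp, covered Sox6 place 5676. The 2 shared Sox6 peaks from the last 50% of the list both lay in the middle of the gene, under the Sox9 peaks at 62923485 to 62923715 and 62930574 to 62930765. Between these, the Sox9 peak at 62928620 to 62928930 missed the Sox6 peak beside it by 3 bp.

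Next came 3 Sox9 peaks in the stretch from 65 to 75 kb, at 62939933 to 62940095, 62944389 to 62944557 and 62949583 to 62949831, and all were shared with centres 37.5, 1.00 and 16.0 bp from those of Sox6. Near 89 kb, a shared Sox9 peak at 62963623 to 62963942 was followed by one at 62964048 to 62964307 that lay 89 bp from the same Sox6 peak. Near 97 kb, the Sox9 peaks at 62971653 to 62971878 and 62972802 to 62972890 were both shared. The last Sox9 peak of the locus was early in its list (place 1147), at 62984605 to 62984768 and 110 kb into the gene, and it overlapped Sox6 place 8804.

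Beyond that last Sox9 peak 9 Sox6 peaks continued over the end of the gene, of which 1 stood in the first 50% of the list. A run of 4 of them, from 62995101 to 62996457, spanned the approximate gene end. The last Sox6 peak of the window was at 63004488 to 63004733. The next Sox6 peak lay 12.4 kb outside the window (63022329 to 63022565), and the next Sox9 peak 138.6 kb outside it (63148451 to 63148653).

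At the 21 shared sites each Sox6 peak met a single Sox9 peak, so that they form 21 pairs. Their centres were a median of 44.0 bp apart, from 0.5 to 209 bp, and 12 of the 21 lay within 50 bp. The median was 37.5 bp for the 15 pairs of the gene body, of which 10 lay within 50 bp, and 83.5 bp for the 6 upstream pairs, of which 2 did. The overlap was a median of 114 bp, from 38 to 222 bp. The distances and overlaps of all shared peaks of the lists are not given here. The pair values are therefore a description, and the difference between the 15 gene-body and 6 upstream pairs was not tested. Of the 7 Sox9 peaks that touched no Sox6 peak, 6 had a Sox6 edge within 1000 bp, and the median gap of the 7 was 191 bp. The locus held 1 Sox6 peak per 1.36 kb in the gene body and 1 per 5.77 kb upstream. The share over all unshared Sox9 peaks is not given here, so this closeness is a description. For the 85 Sox6 peaks without an overlap, the nearest Sox9 edge was a median of 2034 bp away, and at most 19719 bp.

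At the paired sites early Sox6 peaks met Sox9 peaks from all parts of the Sox9 list. Sox6 stood in the first 50% of its list at 19 of the 21 pairs and Sox9 at 10, where over the whole lists 82.6% of shared Sox6 peaks and 54.7% of shared Sox9 peaks did. The Sox6 peak was the earlier one at 16 pairs in percent of the list and at 9 by place number, so which factor came first depends on the unequal lengths of the lists. Both were in the first 10% of their lists at 4 pairs, the Sox6 places 14, 25, 1293 and 4712. Over the 21 pairs Spearman's rho of the positions was 0.39 and Pearson's r 0.32, as a description across sites of 1 locus and 1 pair of lists. At Sox6 places 91, 7127 and 9639 the Sox9 partner stood beyond 85% of its list.

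**Figure D4:**
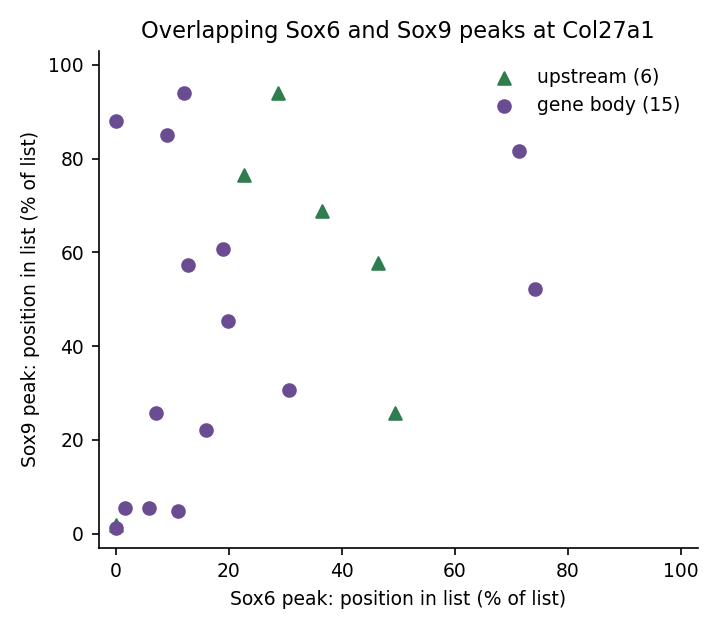
Position of the Sox9 peak (y axis) against that of the Sox6 peak (x axis), each in percent of its deposited list, for the 21 overlapping pairs at Col27a1; triangles are upstream pairs (6) and circles gene-body pairs (15). Points crowd the left side, where Sox6 is early, and spread over the whole height, and 1 upstream triangle at the lower left lies under a circle.

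Wide peaks made up a larger share of either list at the locus than in the whole list, and the Sox6 peaks of the gene body were closely spaced. The median width was 167 bp in the gene body, 110 bp upstream and 151 bp in the whole list. Of the 89 gene-body peaks 15 (16.9%) were 300 bp or wider, against 8.42% of all Sox6 peaks and 1 of 13 upstream. Among the locus's Sox9 peaks 5 of 28 (17.9%) reached this width, 3 of 19 in the gene body and 2 of 9 upstream, against 9.83% of all Sox9 peaks. These shares were not tested. Of the 16 such Sox6 peaks at the locus 14 stood in the last 50% of the list and 2 were shared. Among all Sox6 peaks of the locus 65.1% stood there and 19.8% were shared. The values over all wide Sox6 peaks of the list are not given here, so these counts are a description. The 3 widest, at 62892204 to 62892700 (497 bp), 62934438 to 62934910 (473 bp) and 62927049 to 62927502 (454 bp), were unshared peaks of the gene body at 62.8%, 73.4% and 83.1% of the list. Neighbouring Sox6 centres were a median of 971 bp apart in the gene body and 2986 bp upstream. Of the locus's Sox6 peaks 71.7% had another within 1000 bp, against 33.3% in the whole list. For Sox9 peaks these values were 21.4% and 16.7%. The close spacing is no finding apart from the high Sox6 count, with which the locus was described. Peaks covered 14.9% of the gene body in the Sox6 list and 3.32% in the Sox9 list, and upstream 2.49% and 2.41%.

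The locus was among the stretches of its length with most Sox6 peaks. It was described with its high count already known, so its rank is no independent finding. When all chromosomes were divided into 210 kb windows aligned to the locus, none of the 8963 other windows with a peak held 106 Sox6 peaks, and 3 held 28 or more Sox9 peaks. The median window held 6 Sox6 and 2 Sox9 peaks. With the windows moved by 50% of their length, 1 window held more Sox6 peaks than the locus, on chromosome 10 from 82435001 to 82645000 with 108 Sox6 and 28 Sox9 peaks, and 5 windows held at least 28 Sox9 peaks. None of these overlaps the locus.

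In the aligned windows, the 3 next by Sox6 count had like proportions of late-listed peaks and of sharing. On chromosome 7 from 124540001 to 124750000 there were 89 Sox6 peaks, of which 23 were shared (25.8%) and 59.6% stood in the last 50% of the list. A second window on chromosome 7, from 86110001 to 86320000, had 79 Sox6 peaks with 15 shared (19.0%) and 65.8% late, and one on chromosome 1, from 71620001 to 71830000, had 78 with 12 shared (15.4%) and 76.9% late. At Col27a1 these values were 19.8% and 65.1%, inside the range of the 3 windows.

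**Figure D5:**
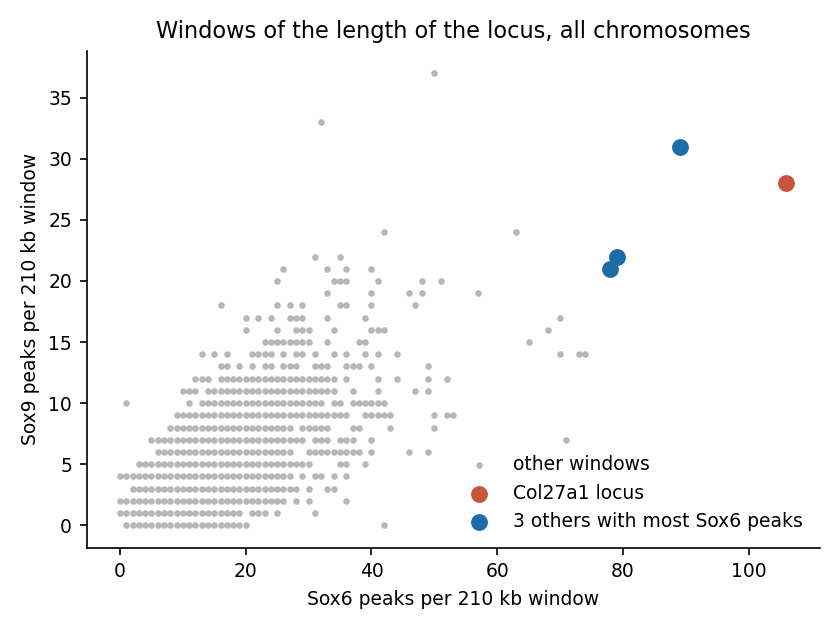
Sox9 peaks (y axis) against Sox6 peaks (x axis) in windows of 210 kb aligned to the locus, over all chromosomes, with the Col27a1 locus in red, the 3 other windows with most Sox6 peaks in blue and all other windows in grey, where windows with equal counts share a point. The locus lies farthest to the right, at 106 Sox6 and 28 Sox9 peaks, and 3 windows reach as high or higher.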

How the data were processed

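Both files as deposited by the authors hold chromosome, start and end of called peaks, with no score or read count. Reads were aligned with Bowtie to mm9, per the submitters' processing notes for the 2 samples. No source used here gives the peak caller, and of its threshold only the mark FDR1 in the names of the lists, without explanation. Sox9 peaks were re-called by the submitters from earlier samples in the manner used for Sox6, per the series' design text, and their build was taken as mm9. Starts are printed counted from 1. The members, the parts and the lists of sites were chosen with earlier results of these data known. Peaks of the 2 lists with 1 bp or more in common were called shared. Sites named are every Sox9 peak, the 10 earliest and 3 widest Sox6 peaks, the longest run at 1000 bp, the longest Sox6-free stretch of the gene body and the 3 next windows. Others, such as peaks at the gene start, were picked after their values were seen. Exact intervals and Fisher's exact tests used scipy 1.17.1 in Python 3.11.15. Overlap and merging were tested on simulated lists. Alternatives were other overlap rules, shorter lists, merged peaks and a gene start moved by 5000 bp. Peaks were not compared with input.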

Additional observations from a re-analysis of the deposited data

How the results depend on the processing

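The share of Sox6 peaks of the locus that overlap Sox9 (19.8%) moved to 11.3% where the overlap had to be 50% of each peak, to 40.6% where peaks up to 1000 bp apart counted and to 68.2% with the Sox6 list shortened to the length of the Sox9 list. The share of Sox9 peaks (75%) moved to 42.9%, 96.4% and 53.6% under the same 3 settings. The shares of all peaks under these settings are not given here, so the locus was not compared with the whole lists under them. The higher Sox6 share upstream (29.3 percentage points) turned to -4.67 with the 50% overlap and to -7.41 with the first 50% of each list, and was 8.33 (Fisher's exact test, adjusted p = 1) with the shortened list. The difference in Sox9 share (-12.3 percentage points) turned to 5.26 with the gap. It was -46.8 with the 50% overlap, from 1 of 9 upstream and 11 of 19 in the gene body (Fisher's exact test, adjusted p = 0.0584). It was -29.8 with the shortened Sox6 list, -29.2 with the gene start moved 5000 bp downstream and -1.17 where centres within 250 bp counted. The ratio of odds between gene body and upstream (3.24) turned to 0.90 with the first 50% of each list and was 2.13 with the shortened list. The Sox6 density ratio (4.24) fell to 1.86 with the first 50% of each list, and with windows moved by 50% of their length 1 window in place of 0 reached the Sox6 count. Fewer peaks enter the settings that shorten a list. For the other settings the cause was not tested. The remaining 32 of 46 recomputed values include the negative recomputed differences in Sox9 share above, which varied in size. The 32 values kept their direction and side of the threshold or stayed within their interval. The exception in direction was the Sox9 density ratio, which fell to 0.92 (from 1.31) with the gene start moved 5000 bp downstream. No paired analysis was possible because each factor has 1 peak list. Depth is unknown, since the lists hold no counts.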

Other observations

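Some Sox6 peaks of the gene body stood near each other in the deposited list, though few of these were next to each other on the chromosome. Of the 89 gene-body peaks 18 stood within 5 places of another peak of the locus, and none of the 13 upstream peaks did. In the Sox9 list 4 of 19 gene-body peaks and 2 of 9 upstream peaks did. The share over all peaks is not given here, so these counts are a description. Places 58660, 58661 and 58662 are the peaks at 62925983 to 62926098, 62923457 to 62923706 and 62922880 to 62923198, in the reverse order. Other Sox6 peaks, such as that at 62924994 to 62925222 (place 72125), lie between those of places 58660 and 58661. In the last 50% of the Sox6 list 4.27% of consecutive entries lay on 1 chromosome within 210 kb of each other, against 0.989% in the first 50%, and in the Sox9 list the values were 2.65% and 0.930%. What set the order of the lists was not tested.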
